A study of Rattus norvegicus with 8 samples.

Results

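The subunits and assembly factors of the mitochondrial respiratory chain were examined in oligodendrocytes purified from rat brain. Members were all genes whose annotated symbol starts with Nduf, Uqcr, Sdh or Atp5, or with Cox followed by 4, 5, 6, 7 or 8, and only probe sets annotated to exactly 1 gene were used. The rule gave 89 genes of 13810. They were read by 94 of 15866 probe sets on chip A and by 8 of 15276 on chip B, and 7 genes had probe sets on both.

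The cells were A2B5/OTMP+ perineuronal oligodendrocytes, a class found beside the cell bodies of neurons, sorted by flow cytometry from rat brain at postnatal day 7. A2B5 is a ganglioside epitope of glial precursors, and the labels do not say what OTMP stands for. RNA of 4 biological replicates was read on Affymetrix chip A and chip B, which gave 8 arrays, 4 of each type. There was 1 population and no control group, no strain, sex or treatment is given, and the number of animals in a replicate is not given, so the p-values measure only the spread between these samples.

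The respiratory chain lies in the inner mitochondrial membrane. Complex I takes electrons from NADH and complex II from succinate, ubiquinone carries them to complex III, cytochrome c carries them on to complex IV, and complex IV hands them to oxygen. Complexes I, III and IV pump protons as they do so, and complex V, ATP synthase, uses the returning protons to make ATP. A few core subunits are encoded in the mitochondrial genome, and the genes described here are nuclear. In the oligodendrocyte lineage this machinery is studied mainly because making myelin membrane costs much energy, while mature oligodendrocytes are known to draw heavily on glycolysis.

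Each deposited value is a linear ratio, in which signal is set against a reference left unnamed in the labels. A ratio places a gene against that reference only, so it neither ranks one gene's expression against another's nor says whether a gene was expressed. The median ratio of an array was between 0.903 and 0.946 on chip A and between 0.888 and 0.967 on chip B. Values were therefore taken as the log2 ratio minus the array median, called the centred log2 ratio. Each probe set was tested against 0 with limma over the whole chip, and it was called lower or higher at an adjusted p under 0.05. In bulk samples such as these, fewer cells of a type and less RNA per cell cannot be told apart. Replicates correlated at r between 0.716 and 0.792 over all chip A probe sets. All 8 astrocyte marker genes on the list were higher with at least 1 probe set (median centred log2 ratio 1.50 on chip A), among them Aldh1l1 at 2.61 ± 0.51 (SD, n = 4). A further Slc1a3 probe set, at −0.16 ± 0.04, and a further Slc1a2 probe set, at 0.62 ± 0.62, were not called. Of the 7 oligodendrocyte lineage genes, Pdgfra was higher at 1.04 ± 0.65 (called with limma, adjusted p = 0.0406), 1 of the Olig2 probe sets was lower and 5 genes were not called. The Pdgfra call was lost without replicate 1, 3 or 4, with adjusted p between 0.102 and 0.138. Of 7 myelin genes 1 was higher, 1 lower, 1 was called in both directions and 4 were not called. Among 8 neuron genes 3 were higher, 1 lower and 1 called in both directions, and among 4 choroid plexus genes 2 were higher and 1 lower. None of the 6 microglia, 5 endothelial and 2 erythroid genes was called. By the same count 29.0% of all genes were lower and 10.1% higher, and no list was tested against these shares. Since the values are ratios, these markers place the cells against the unnamed reference and do not say which cell types were present, and their part in the results below was not tested.

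On chip A the respiratory chain lay below the array median as a group. Of the 94 member probe sets 37 were lower (39.4%) and 0 were higher, where 23.3% of all chip A probe sets were lower and 11.8% were higher (limma, Benjamini-Hochberg adjusted). At an unadjusted p under 0.05, 51 members were lower and 0 higher. The median member stood at a centred log2 ratio of −0.34, with an interquartile range from −0.52 to −0.14, against a median of 0.01 for all probe sets, with an interquartile range from −0.34 to 0.21. Members ran from −1.29 for Atp5mg to 0.26 for Cox4i2. In deposited ratios the median member was 0.727 and the median of all probe sets 0.926. The mean was below 0 for 85 members (90.4%) and for 49.2% of all probe sets.

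The count of calls changed with the arrays used. It was 20 without replicate 1 and 19 without replicate 4, and 16 members were called lower whichever replicate was left out. Leaving out an array also lowers the power of the test. Shares of all probe sets were not set beside these counts, so a fall over the whole chip cannot be told apart from one in the members. An unmoderated test called 16 lower and 2 higher, Ndufa13 and Cox7a1, where it called 18.3% of all probe sets lower and 6.38% higher. Members below the median on all 4 arrays numbered 50 (53.2%), where 29.3% of all probe sets were. Those above it on all 4 were Ndufa13 and Cox7a1, 2 of 94, where 26.2% of all probe sets were. With the deposited ratio set against 1, 54 members were lower, where 30.1% of all probe sets were, and 0 were higher, where 9.21% of all were. Counted by gene over both chips, 37 of 89 were lower and 0 higher, where 29.0% of all genes were lower and 10.1% higher.

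**Figure D1:**
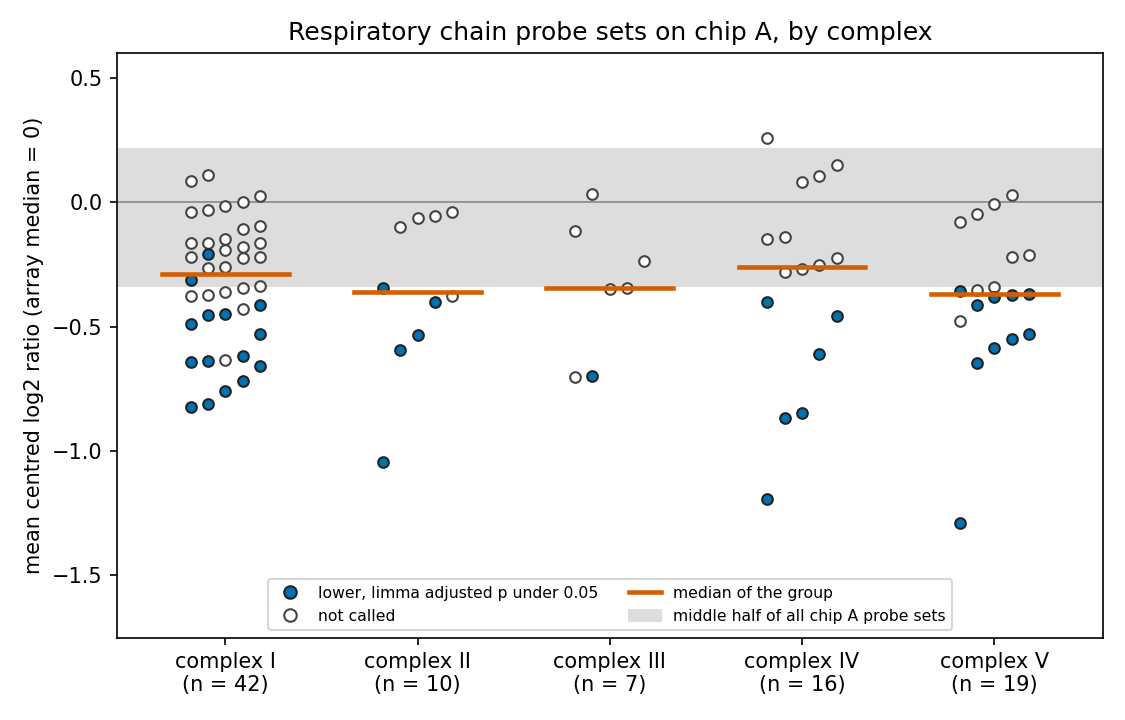
Mean centred log2 ratio (vertical axis, array median at 0) of each member probe set on chip A, over 4 replicates, by complex. Filled points were lower with limma at an adjusted p under 0.05, the bar is the median of the complex and the grey band is the interquartile range of all chip A probe sets, from −0.34 to 0.21; most members of every complex lie below 0, and 0 are filled above it.

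All 5 complexes lay below the array median, and their medians were close to each other. Complex I had 15 of 42 probe sets lower and a median of −0.29. Complex II had 5 of 10 lower and a median of −0.36. Complex III had 1 of 7 lower (14.3%), at a median of −0.34. It was the only complex whose share of lower probe sets was under the 23.3% of all chip A probe sets. No complex had a probe set called higher. Complex IV had 6 of 16 lower and a median of −0.26, and complex V had 10 of 19 lower and a median of −0.37.

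Taken array by array, the median of complex I was −0.40, −0.18, −0.38 and −0.34 in replicates 1 to 4, a mean of −0.33 ± 0.10 (SD, n = 4). For complex II the same medians were −0.41, −0.29, −0.20 and −0.33, a mean of −0.31 ± 0.09. Those of complex III were −0.46, 0.03, −0.37 and −0.41, a mean of −0.30 ± 0.22. Complex III was the only one above the array median in any replicate, and that in replicate 2. Complex IV gave −0.41, −0.12, −0.31 and −0.21, a mean of −0.26 ± 0.13, and complex V gave −0.49, −0.16, −0.40 and −0.41, a mean of −0.36 ± 0.14. The means of the 5 complexes thus ran from −0.36 to −0.26. All 5 were read on the same arrays, so the SD over replicates does not measure the differences between them. Complex V lay below complex IV in each of the 4 replicates, while the order of most other pairs changed between replicates. Differences between complexes were not tested.

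**Figure D2:**
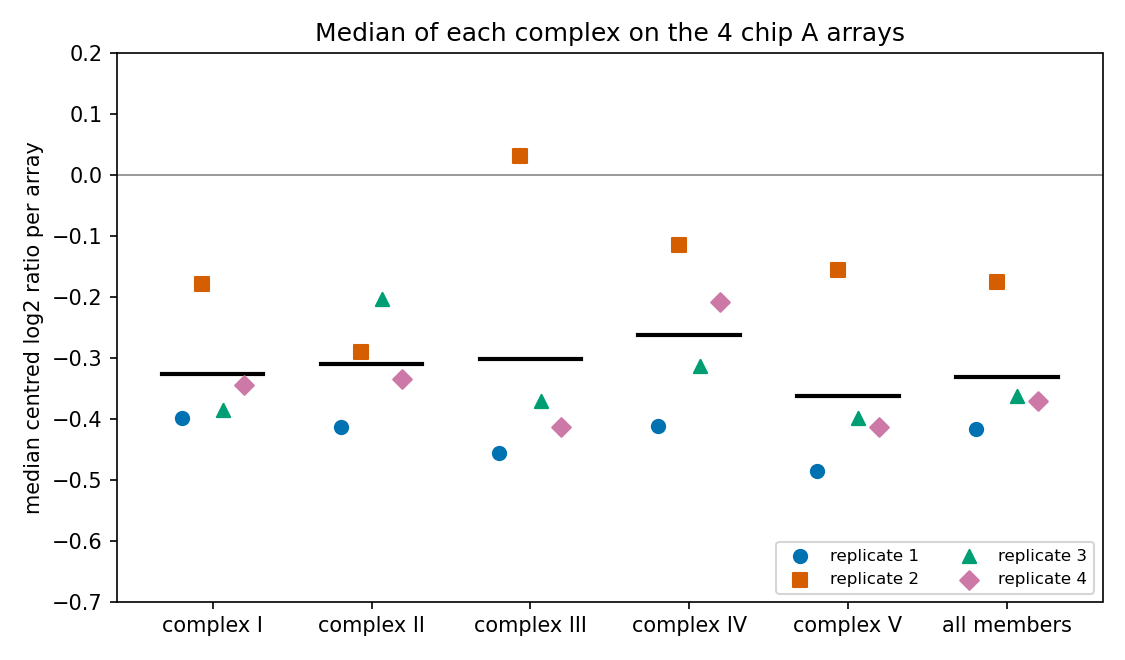
Median centred log2 ratio (vertical axis) of the member probe sets of each complex, and of all members, on each of the 4 chip A arrays; the bar is the mean of the 4 arrays. Replicate 2 is the highest for complexes I, III, IV and V, and replicate 3 for complex II.

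The replicates did not place the respiratory chain equally low. The median member was −0.42 in replicate 1, −0.18 in replicate 2, −0.36 in replicate 3 and −0.37 in replicate 4, and 85, 63, 80 and 78 of the 94 members were below the array median. Replicate 2 held the highest value of the 4 for 49 members (52.1%), and for 28.2% of all chip A probe sets. On the same arrays the oligodendrocyte lineage list had a median of 0.46, −0.38, 0.34 and 0.40 over 6 probe sets, and the microglia list had −0.31, −0.63, 0.08 and −0.57 over 7. The astrocyte list had 1.87, 1.23, 1.50 and 1.26 over 14 probe sets, and the neuron list 0.40, 0.27, 0.34 and 0.65 over 12. Replicate 2 was the lowest of the 4 on these lists, but not on the others. It was the highest on the endothelial list, with −0.30, 0.48, 0.15 and 0.20 over 6 probe sets, and on the erythroid list, with 0.13, 0.86, 0.26 and 0.82 over 2. It lay between the others on the choroid plexus list, with 0.20, 0.78, 0.05 and 0.93 over 5, and on the myelin list, with 0.22, 0.06, 0.12 and −0.02 over 12. The part of cell makeup in the members' values was not tested. With replicate 2 left out, 38 members were called lower, of which 28 were among the 37.

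The largest departures were found in complexes I, II, IV and V. Atp5mg, the g subunit at the dimer interface of ATP synthase, had ratios of 0.302, 0.736, 0.246 and 0.368 in replicates 1 to 4. Replicate 2 stood well above the other 3, and the centred log2 ratio was −1.29 ± 0.69 (SD, n = 4; limma adjusted p = 0.0258). Its call was lost without replicate 1, 3 or 4, with adjusted p between 0.069 and 0.0974. Cox6a2, the heart and skeletal muscle form of a small cytochrome c oxidase subunit, had 0.388, 0.414, 0.427 and 0.384, the tightest of the 8 lowest members, at −1.19 ± 0.04 (limma adjusted p = 0.00015). A bacterial spike-in control of the same arrays, for the thr gene, had ratios between 0.382 and 0.417, so this range also occurs without a rat target. It was among the lowest of the bacterial controls, and another thr probe set had ratios between 0.915 and 1.009. What these controls mean for Cox6a2 was not tested. Sdhaf4, a chaperone for the flavoprotein Sdha during assembly of complex II, had 0.307, 0.498, 0.424 and 0.615, and −1.04 ± 0.42 (limma adjusted p = 0.0116).

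Cox5b, a nuclear subunit of complex IV, had ratios of 0.448, 0.635, 0.649 and 0.354, with replicates 1 and 4 lowest, at −0.87 ± 0.39 (limma adjusted p = 0.0174). Without replicate 1 its adjusted p was 0.0639. Cox7c, another general subunit of complex IV, had 0.459, 0.592, 0.551 and 0.459, at −0.85 ± 0.16 (limma adjusted p = 0.00155). In complex I, Ndufab1, the mitochondrial acyl carrier protein, had 0.397, 0.722, 0.433 and 0.59, at −0.82 ± 0.40 (limma adjusted p = 0.0207), and the call was lost without replicate 1, 3 or 4, with adjusted p between 0.0613 and 0.0659. Ndufa2, an accessory subunit of the peripheral arm, had 0.501, 0.631, 0.504 and 0.48, at −0.81 ± 0.17 (limma adjusted p = 0.00205). Ndufb1, an accessory subunit of the membrane arm, had 0.466, 0.599, 0.555 and 0.57, at −0.76 ± 0.14 (limma adjusted p = 0.00174). All 32 ratios of these 8 genes were below 0.903, the lowest array median.

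**Figure D3:**
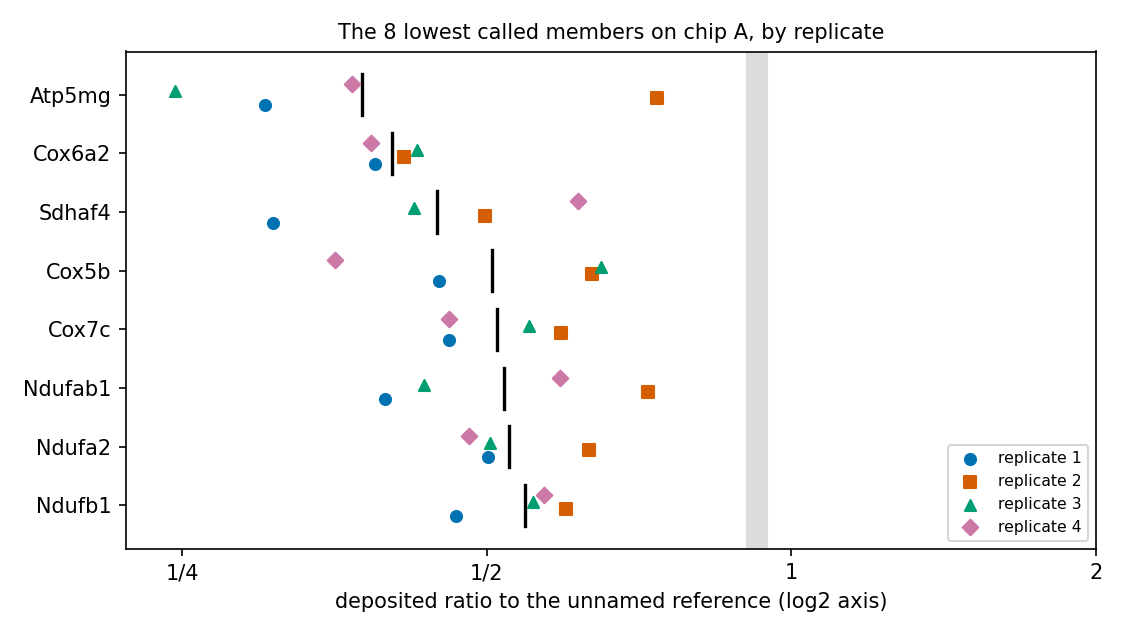
Deposited ratio to the unnamed reference (horizontal log2 axis) of the 8 lowest called members on chip A, 1 point per replicate, with the geometric mean as a bar and the range of the array medians (0.903 to 0.946) as a grey band. Every point lies left of the band; Atp5mg is the most spread (0.246 to 0.736) and Cox6a2 the least (0.384 to 0.427).

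Within complex I, 2 of 6 core subunits were lower (median −0.21), 11 of 29 probe sets of accessory subunits were lower (median −0.34) and 2 of 5 assembly factors were lower (median −0.23). The share over all chip A probe sets was 23.3%. The core subunits carry the redox chemistry and are shared with the bacterial enzyme. Ndufv2, an iron-sulfur subunit of the NADH-oxidising module, had ratios of 0.484, 0.6, 0.635 and 0.702 and a centred log2 ratio of −0.62 ± 0.22 (limma adjusted p = 0.00963). Its partner Ndufv1, the flavin-binding subunit, was not called, with 0.929, 1.051, 0.838 and 0.848. The iron-sulfur subunits of the ubiquinone-reducing module also stood apart from each other. Ndufs8 was lower, with 0.559, 0.787, 0.772 and 0.549 (limma adjusted p = 0.0299), though not without replicate 1, 3 or 4, where its adjusted p was between 0.0516 and 0.099, and Ndufs7 was not called, with 0.998, 1.002, 1.103 and 0.887. The difference between these subunits was not tested.

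Among the accessory subunits, those called lower on chip A besides Ndufab1, Ndufa2 and Ndufb1 were Ndufb6, Ndufb10, Ndufa8, Ndufb9, Ndufa6, Ndufb11, Ndufa12 and Ndufs4, with centred log2 ratios between −0.72 and −0.21. Of these, Ndufb6, Ndufb10, Ndufa8 and Ndufb9 kept their call whichever replicate was left out. Ndufb11 lost it without replicate 1 or 4, Ndufa6 without replicate 1, 2 or 3, Ndufa12 without replicate 1, 2 or 4, and Ndufs4 without any of the 4, with adjusted p between 0.0516 and 0.142. Several of these carry Ndufb names, which belong to accessory subunits of the membrane arm, though not all such subunits bear them. Ndufb2, Ndufb3, Ndufb4, Ndufb5, Ndufb7 and Ndufb8 were not called, with centred log2 ratios between −0.38 and −0.10. Ndufb6 had ratios of 0.485, 0.563, 0.595 and 0.608, at −0.72 ± 0.13 (limma adjusted p = 0.00183), and Ndufb10 had 0.602, 0.579, 0.645 and 0.518, at −0.66 ± 0.11 (limma adjusted p = 0.00179). Ndufa13, also known as Grim19, differed from these, with 0.97, 1.004, 0.996 and 0.942, at 0.09 ± 0.03 (limma adjusted p = 0.193). Of the assembly factors, Ndufaf3 was at −0.64 ± 0.31 (limma adjusted p = 0.0213) and Ndufaf8 at −0.45 ± 0.28 (limma adjusted p = 0.0459), while Ndufaf4, the partner of Ndufaf3, was not called at −0.23 ± 0.14 (limma adjusted p = 0.0677). The call of Ndufaf3 was lost without replicate 4 (adjusted p = 0.0894), and that of Ndufaf8 without any of the 4, with adjusted p between 0.0565 and 0.128.

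In complex II, Sdhb, the iron-sulfur subunit, had ratios of 0.684, 0.64, 0.809 and 0.463 and was lower at −0.53 ± 0.32 (limma adjusted p = 0.0397). That call was lost without replicate 1, 2 or 4, with adjusted p between 0.0558 and 0.113. Sdha, the flavoprotein that oxidises succinate, was at 0.873, 0.821, 1.003 and 0.761 and was not called, at −0.10 ± 0.15 (limma adjusted p = 0.333). Of the membrane anchors, Sdhd was lower with both of its probe sets. The first had 0.604, 0.752, 0.767 and 0.68, at −0.40 ± 0.13 (limma adjusted p = 0.0117), and the second had 0.672, 0.769, 0.829 and 0.649, at −0.34 ± 0.13 (limma adjusted p = 0.0204). Without replicate 4 their adjusted p were 0.0546 and 0.0698, and the second also lost its call without replicate 1 (adjusted p = 0.0789) or 2 (adjusted p = 0.0546). Sdhc, the other anchor, had 0.899, 0.779, 0.941 and 0.943 and was not called, at −0.05 ± 0.14. Among the assembly factors, Sdhaf1, which helps put iron-sulfur clusters into Sdhb, had 0.589, 0.599, 0.64 and 0.612, at −0.60 ± 0.04 (limma adjusted p = 0.000795). Sdhaf2, which helps attach the flavin to Sdha, was not called with either of its probe sets, at −0.06 ± 0.21 and −0.04 ± 0.15.

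In complex III, Uqcrfs1, the Rieske iron-sulfur protein, was the only member lower on chip A. Its ratios were 0.643, 0.495, 0.482 and 0.679, all under 0.903, at −0.70 ± 0.28 (limma adjusted p = 0.0134), and replicates 2 and 3 were the lowest here. Uqcrq, a small subunit, reached the same mean with a wider spread, 0.574, 0.748, 0.732 and 0.326, at −0.70 ± 0.54, and was not called (limma adjusted p = 0.07). The other small subunits, Uqcrh, Uqcr10 and Uqcr11, lay between −0.35 and −0.24 and were not called. The core proteins of the matrix side, Uqcrc1 and Uqcrc2, were at 0.03 ± 0.08 and −0.11 ± 0.25 on chip A, neither called.

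**Figure D4:**
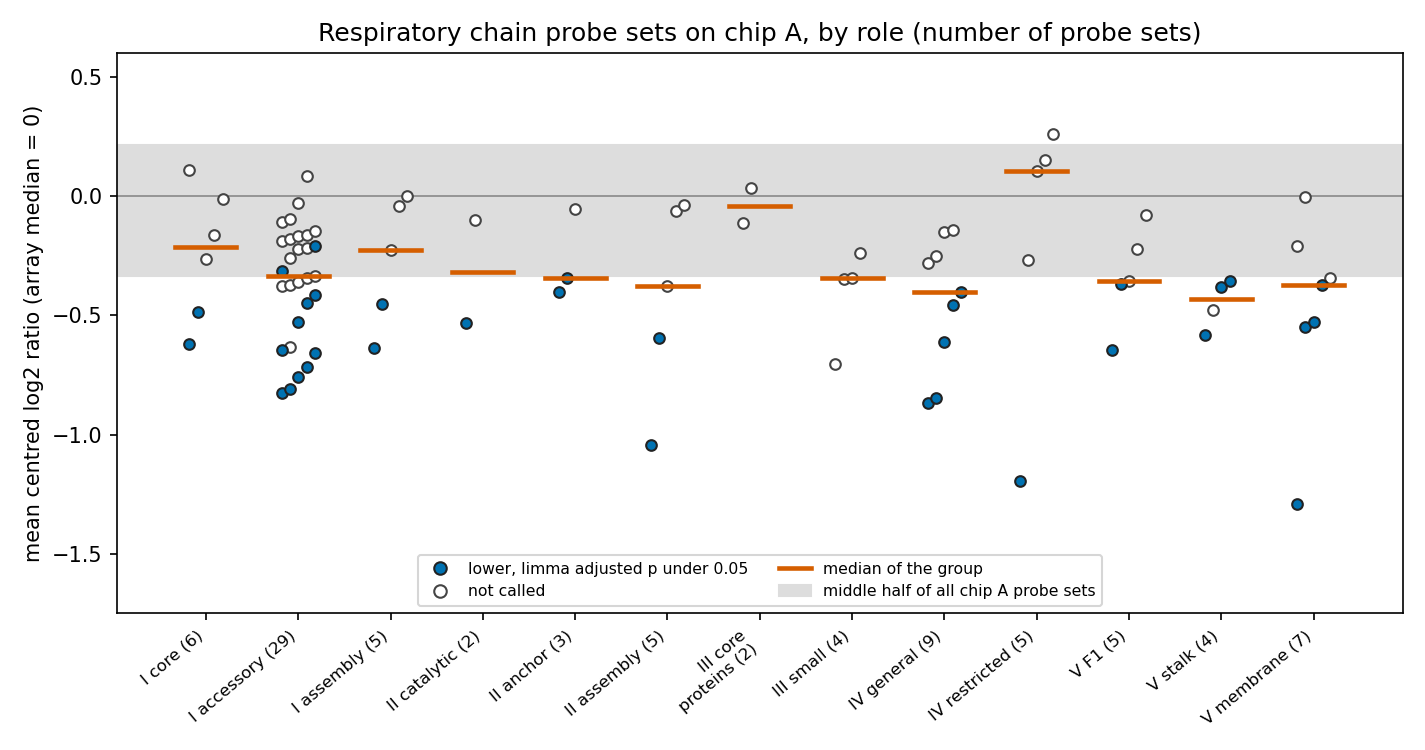
Mean centred log2 ratio (vertical axis) of member probe sets on chip A by role within each complex, with the number of probe sets in brackets; filled points were lower with limma at an adjusted p under 0.05, bars are group medians and the grey band is the interquartile range of all chip A probe sets. The general subunits of complex IV have a median of −0.40, and the isoforms of restricted tissues 0.10, with Cox6a2 far below the other 4; roles held by 1 probe set and the inhibitor Atp5if1 are not drawn.

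Several nuclear subunits of complex IV come as paralogues, a general form and a form restricted to muscle, lung, testis or other tissues. Of the 9 general subunits 5 were lower (55.6%, median −0.40), and of the 5 restricted isoforms Cox6a2 was (20.0%, median 0.10). The share of the restricted isoforms was close to the 23.3% of all chip A probe sets that were lower. The difference between general and restricted forms was not tested. Cox4i1, the general form of the regulatory subunit, had 0.77, 0.794, 0.916 and 0.642, at −0.25 ± 0.19, and was not called (limma adjusted p = 0.0876). Its paralogue Cox4i2, known from lung and from hypoxia, had 0.801, 0.968, 1.322 and 1.443, at 0.26 ± 0.39, and was not called either (limma adjusted p = 0.266). These replicates of Cox4i2 fell on both sides of the array median.

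For the Cox6a pair, the general Cox6a1 had ratios of 0.615, 0.68, 0.849 and 0.669, at −0.40 ± 0.17 (limma adjusted p = 0.0208). It lost its call without replicate 1, 2 or 4, with adjusted p between 0.0724 and 0.0836, and all of its ratios were above those of Cox6a2, although ratios do not compare the abundance of the pair. For the Cox6b pair, the general Cox6b1 was lower with 0.484, 0.755, 0.691 and 0.524, at −0.61 ± 0.28 (limma adjusted p = 0.0196), and lost its call without replicate 1 or 4, with adjusted p of 0.0555 and 0.0811. Cox6b2, known from testis, had 0.577, 1.175, 0.599 and 0.848 and was not called, at −0.27 ± 0.48 (limma adjusted p = 0.336).

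Cox7a1, the muscle form of its subunit, had 0.977, 1.004, 1.027 and 0.954, above the array median on all 4 arrays, at 0.10 ± 0.02 (limma adjusted p = 0.131), and its mean log2 ratio without centring was −0.01. Its general paralogue Cox7a2 had no probe set of a single gene. Cox7a2l, which is related to them and joins complexes III and IV into supercomplexes, had 0.757, 1.095, 0.641 and 0.727 and was not called, at −0.22 ± 0.33. Neither member of the Cox8 pair was called, the general Cox8a at −0.14 ± 0.26 and the muscle form Cox8b at 0.15 ± 0.38. Cox5a was at −0.15 ± 0.25, also not called. A probe set that Cox5a shares with another symbol, left out here, had ratios of 0.48, 0.693, 0.697 and 0.666. Ndufa4 was first placed in complex I, with which its symbol groups it here, and was later found in complex IV. It had 0.541, 0.906, 0.637 and 0.699, at −0.43 ± 0.30, and was not called (limma adjusted p = 0.0621), but it was lower without replicate 2 (adjusted p = 0.0261). Its paralogue Ndufa4l2, known as a hypoxia target, was at 0.02 ± 0.20.

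**Figure D5:**
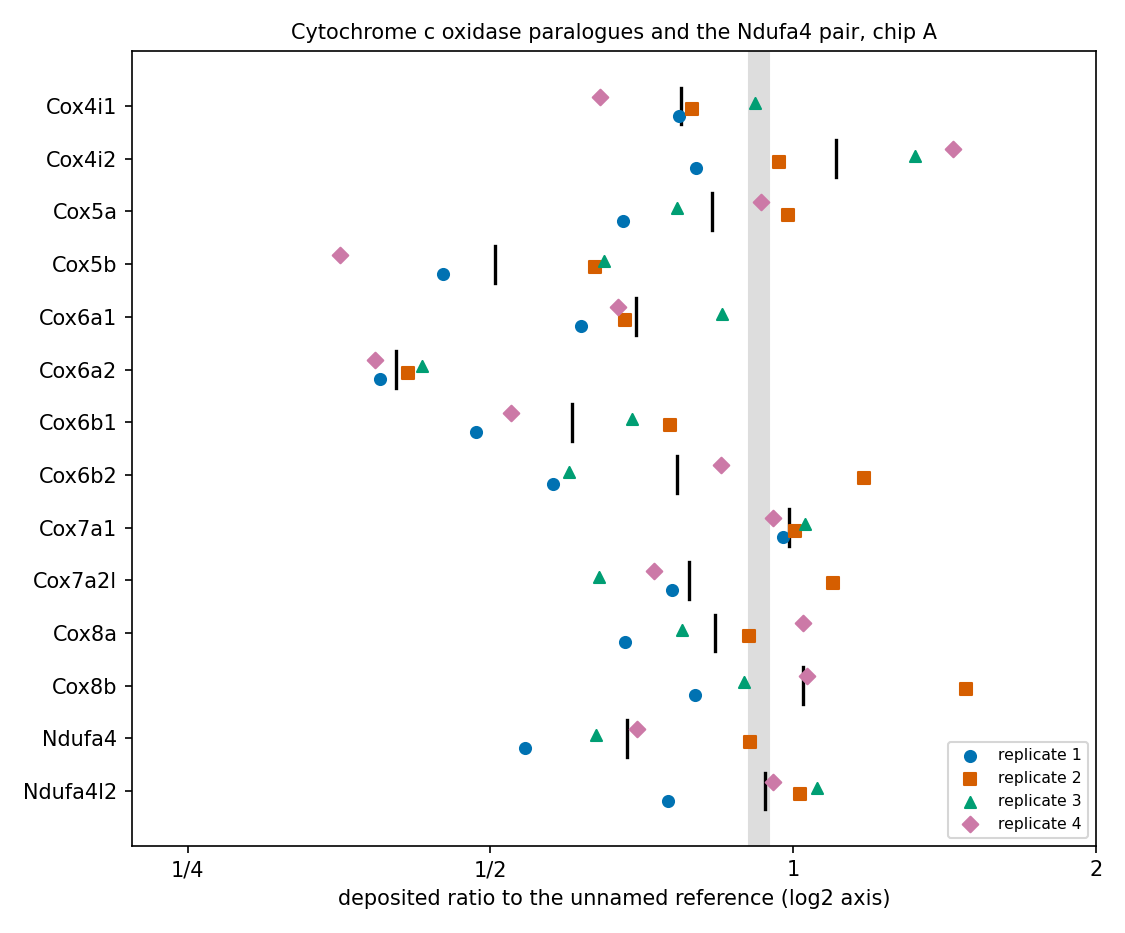
Deposited ratio to the unnamed reference (horizontal log2 axis) of the cytochrome c oxidase paralogues and the Ndufa4 pair on chip A, 1 point per replicate, with the geometric mean as a bar and the range of array medians as a grey band. Cox5b, Cox6a1, Cox6a2 and Cox6b1 lie wholly left of the band, the points of Cox4i2, Cox8b and Cox6b2 fall on both sides of it, and Cox7a1 lies just right of it, between 0.954 and 1.027.

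In complex V the calls were spread over its parts, with 2 of 5 F1 subunits lower (median −0.35), 3 of 4 subunits of the peripheral stalk (median −0.43) and 4 of 7 probe sets of membrane subunits (median −0.37). Of all chip A probe sets 23.3% were lower, and these small groups were not tested against that share. F1 is the catalytic head in the matrix. Its epsilon subunit Atp5f1e had ratios of 0.49, 0.788, 0.649 and 0.481, at −0.64 ± 0.32 (limma adjusted p = 0.0232), and its gamma subunit Atp5f1c, the rotating shaft, was at −0.37 ± 0.17 (limma adjusted p = 0.0255). Atp5f1e lost its call without replicate 1, 3 or 4, with adjusted p between 0.0628 and 0.0848, and Atp5f1c without replicate 2, 3 or 4, with adjusted p between 0.0536 and 0.0848. A second Atp5f1c probe set, on chip B, was of the opposite sign and not called, at 0.16 ± 0.18 (limma adjusted p = 0.226). The mean of both probe sets, taken over the chips by replicate number, was −0.10 for the gene and was not called (limma over genes, adjusted p = 0.264). The alpha and beta subunits that form the catalytic ring, Atp5f1a and Atp5f1b, were not called, at −0.08 ± 0.11 and −0.22 ± 0.25. In the stalk that holds F1 still, Atp5pd had 0.526, 0.678, 0.648 and 0.617, at −0.58 ± 0.14 (limma adjusted p = 0.00382). The other stalk calls were less stable. Atp5pb, at −0.36 ± 0.14 (limma adjusted p = 0.0188), lost its call without replicate 2 or 4. Atp5pf, at −0.38 ± 0.19 (limma adjusted p = 0.0286), lost it without replicate 1, 3 or 4.

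Of the membrane subunits besides Atp5mg, Atp5mf had 0.558, 0.663, 0.718 and 0.594, at −0.55 ± 0.13 (limma adjusted p = 0.00428). Atp5mpl was lower at −0.37 ± 0.13 (limma adjusted p = 0.0143). It lost its call without replicate 1, 3 or 4, with adjusted p between 0.0538 and 0.0611. The c subunits form the rotor ring through which protons pass. Of these genes only Atp5mc3 had a probe set of its own, at 0.893, 1.046, 0.72 and 1.056, and it was not called, at −0.01 ± 0.28 (limma adjusted p = 0.976). Probe sets that Atp5mc1 and Atp5mc2 each share with another symbol were left out. Their ratios were 0.463, 0.905, 0.709 and 0.565 for Atp5mc1, and 0.468, 0.525, 0.578 and 0.624 for Atp5mc2. Atp5if1, the inhibitor that stops ATP synthase from running backwards, had 3 probe sets that disagreed. The first had 0.599, 0.835, 0.651 and 0.701, at −0.41 ± 0.20 (limma adjusted p = 0.0256), and lost its call without replicate 1, 3 or 4, with adjusted p between 0.0828 and 0.0853. The other probe sets of Atp5if1 were at −0.05 ± 0.10 and 0.03 ± 0.09 and were not called.

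Chip B held 8 member probe sets, with a median of 0.01, and 1 of them was lower and 0 higher, where 23.7% of all chip B probe sets were lower and 5.68% higher. The lower one was a second probe set of Uqcrc2, a core protein of complex III, with ratios of 0.627, 0.624, 0.689 and 0.709, at −0.49 ± 0.04 (limma adjusted p = 0.000631). Its probe set on chip A was not called, with 0.82, 0.866, 1.084 and 0.681. Ndufaf1, an assembly factor of the complex I membrane arm and the only member gene read on chip B alone, was at 0.03 ± 0.11. Of the 12 genes with more than 1 probe set, 6 had means of the same sign throughout, and the probe sets of a gene lay a median of 0.38 apart on the log2 scale. The widest gap, 0.63, was that of Ndufa12 again, at −0.31 ± 0.13 on chip A (lower, limma adjusted p = 0.0263) and 0.32 ± 0.38 on chip B (limma adjusted p = 0.229). A result for 1 probe set is therefore not always a result for the gene.

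The annotation limits some members. RefSeq (assembly GRCr8) lists 122 protein-coding symbols that fit the rule, of which 88 had a single-gene probe set, and Cox6c-ps1, a pseudogene, was the other member. A pseudogene symbol built on the member's own exists for 41 of the 89 genes, and signal from such near-identical copies cannot be told apart here. A further 7 probe sets on chip A match a member and a copy or pseudogene and were left out. They belong to Atp5mc1, Atp5mc2, Cox7a2, Cox5a, Uqcrb, Ndufs5 and Ndufa10, and their 28 ratios ran from 0.463 to 1.005.

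Genes of the respiratory chain are known in mammals to share promoter sites for NRF1, for GABPA (also called NRF2) and for YY1, so the promoters of members were searched for their letters on either strand. The windows were RefSeq's (GRCr8), 250 bases before to 50 after the gene's start, and 81 of 89 members matched. Shown here are the 100 bases before the start, 5′ to 3′ on the gene's strand, for members with a match in them, chosen so that the letters of NRF1 and of GABPA are each seen in a member called lower and in one that was not. The YY1 letters lay in these 100 bases of no member called lower, and no window is shown for them. Capitals mark the matched letters. Atp5me lies at chr14:1464760-1464859 (+), Atp5po at chr11:44657484-44657583 (−), Cox5b at chr9:46417737-46417836 (+), Uqcrq at chr10:38089979-38090078 (−).
Atp5me: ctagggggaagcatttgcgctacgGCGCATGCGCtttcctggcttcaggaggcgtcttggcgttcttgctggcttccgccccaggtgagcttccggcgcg
Atp5po: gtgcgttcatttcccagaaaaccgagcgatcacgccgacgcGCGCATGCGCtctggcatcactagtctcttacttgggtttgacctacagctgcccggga
Cox5b: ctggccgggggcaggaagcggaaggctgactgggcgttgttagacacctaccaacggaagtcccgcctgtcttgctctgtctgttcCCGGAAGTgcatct
Uqcrq: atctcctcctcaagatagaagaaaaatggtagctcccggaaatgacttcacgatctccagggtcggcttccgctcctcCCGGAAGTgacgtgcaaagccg

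The NRF1 letters, GCGCA and GCGC with any 1 base between them, appear in the windows of Atp5me and Atp5po, an e subunit and the stalk subunit OSCP of ATP synthase. Atp5me was lower with 1 probe set, at ratios of 0.607, 0.633, 0.637 and 0.681 (−0.53 ± 0.08, limma adjusted p = 0.00205), and not called with the other, at 0.737, 1.018, 0.723 and 0.74. Atp5po was not called on chip A, at 0.555, 0.907, 0.754 and 0.505, nor on chip B, at 0.857, 0.907, 1.0 and 1.007. The GABPA letters CCGGAAGT appear in those of Cox5b, which was lower, and of Uqcrq, which was not called.

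Over the full windows, the NRF1 letters were found in 17 of 81 members (21.0%), against 8.56% of the 11402 genes with a single-gene probe set and 4.71% of all 27457 promoters. The YY1 letters ATGGCGGC were found in 13 members (16.0%), against 5.05% and 2.76% of the same sets. The GABPA letters were found in 8 members (9.88%), against 6.96% and 4.01%. At least 1 of the 3 was in 34 members (42.0%), against 18.6% and 10.5%, and 0 member promoters had matches of different motifs that overlapped. Members called lower had the NRF1 letters in 5 of 33 (15.2%), and members not called in 12 of 48 (25%). The GABPA letters were in 1 of 33 called lower (3.03%), that of Cox5b, and in 7 of 48 not called (14.6%). For the YY1 letters these were 5 (15.2%) and 8 (16.7%), and for at least 1 of the 3 motifs 11 (33.3%) and 23 (47.9%). Median GC content was 56.0% in members, 60.0% in genes with a single-gene probe set and 52.3% in all promoters. These shares are descriptions of the letters, and none was tested.

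Other genes of the pathway, outside the prefixes, were called in both directions. Of 54 listed genes 52 were measured, of which 15 were lower, 6 higher and 1 was called in both directions. These shares were close to those of all genes, of which 29.0% were lower and 10.1% higher. Among 26 assembly factors, 11 were lower and 3 higher. Among 12 electron carriers, subunits outside the prefixes and enzymes of ubiquinone synthesis, 0 were lower and 2 higher. They include Cyc1, a subunit of complex III that the counts for that complex leave out. It was at −0.02 ± 0.26 and not called (limma adjusted p = 0.899). Cycs, the gene of cytochrome c, was listed but had no single-gene probe set. Among 14 genes that control mitochondrial transcription and biogenesis, 4 were lower, 1 was higher, and Ppargc1a had calls in both directions.

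The 6 lowest probe sets called among these were those of assembly factors. Cox14, which stabilises the first subunit of complex IV as it is made, had ratios of 0.418, 0.724, 0.575 and 0.444, at −0.81 ± 0.34 (limma adjusted p = 0.0144), and lost its call without replicate 4 (adjusted p = 0.0644). Cox15, needed to make haem A for complex IV, had 0.523, 0.532, 0.542 and 0.546 on chip B, at −0.80 ± 0.04 (limma adjusted p = 0.000135). Its other probe sets disagreed, at −0.48 ± 0.81 and 0.16 ± 0.19, and were not called. Uqcc3 and Uqcc2, factors for complex III, were at −0.72 ± 0.26 and −0.69 ± 0.21 (limma adjusted p of 0.00886 and 0.00614), and Tmem126b, a factor for the complex I membrane arm, at −0.66 ± 0.21 (limma adjusted p = 0.00714). A second Tmem126b probe set, on chip B, was not called, at −0.08 ± 0.18 (limma adjusted p = 0.503). Atpaf1, which helps assemble F1, was lower on both chips, at −0.42 ± 0.09 on chip A (limma adjusted p = 0.00571) and −0.71 ± 0.31 on chip B (limma adjusted p = 0.0215). Its chip B call was lost without replicate 2, 3 or 4, with adjusted p between 0.0504 and 0.0706.

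Among those above the array median, Polrmt, the RNA polymerase of mitochondria, had ratios of 1.894, 1.418, 1.678 and 1.884, all above 1, at 0.89 ± 0.22 (limma adjusted p = 0.00285). Tfam, the factor that starts mitochondrial transcription with it, was lower, with 0.67, 0.649, 0.581 and 0.636, at −0.54 ± 0.12 (limma adjusted p = 0.00346). Coq9, which aids ubiquinone synthesis, was higher with 1 probe set, at 1.268, 2.229, 1.525 and 1.818 (0.86 ± 0.34, limma adjusted p = 0.0115), and not called with the other, at 0.04 ± 0.15. That call was lost without replicate 4 (adjusted p = 0.0585). Ppargc1a, a coactivator that drives mitochondrial biogenesis, was read in opposite directions. Its chip A probe set had 0.758, 0.611, 0.628 and 0.57, at −0.53 ± 0.19 (limma adjusted p = 0.0109). A chip B probe set had 3.342, 2.045, 1.408 and 2.758, at 1.29 ± 0.58 (limma adjusted p = 0.0229), and another 1.472, 2.179, 0.997 and 1.0, which was not called. The chip A call was lost without replicate 4 (adjusted p = 0.0503), and the higher chip B call without replicate 1, 2 or 4, with adjusted p between 0.0644 and 0.0889, so no direction can be given for the gene.

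Other calls above the median were smaller. Coq6, a hydroxylase of ubiquinone synthesis, was at 0.45 ± 0.21 (limma adjusted p = 0.0243). Ttc19, a factor for complex III, was at 0.27 ± 0.06 (limma adjusted p = 0.0145), and Timmdc1, a factor for complex I, at 0.26 ± 0.13 (limma adjusted p = 0.0444). With the deposited ratio set against 1, none of these 3 was called, with adjusted p of 0.0597, 0.112 and 0.251. Without each replicate in turn, Coq6 lost its call without replicate 1, 2 or 3, Ttc19 without replicate 1, 2 or 4 and Timmdc1 without any of the 4, with adjusted p between 0.0507 and 0.123.

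Other families of widely expressed genes lay as low on chip A as the respiratory chain. The respiratory chain had 39.4% of its probe sets lower and a median of −0.34. Ribosomal protein genes, with symbols starting with Rpl or Rps, had 24 of 59 probe sets lower (40.7%), 0 higher and a median of −0.33. Genes with symbols starting with Psm, most of them for the proteasome, had 21 of 46 lower (45.7%), 1 higher and a median of −0.44. The difference of the respiratory chain from these families was not tested, and a lower value against the unnamed reference was thus not seen in the respiratory chain alone.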

How the data were processed

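RNA of 4 replicates of A2B5/OTMP+ cells was hybridised to Affymetrix chips A and B. Extraction used a Qiagen kit and biotin labelling followed Affymetrix's small sample protocol, per the labels' protocols. RMA is listed without a version, per the submitters' processing notes. The deposited values are linear ratios to an unnamed reference, and the step from RMA's output to these ratios is not stated there. The files give no counts or depths, and the number of arrays limits precision. Reference, scale and any floor stay unknown, and a ratio of 1 is the reference's own level.

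Each ratio was put on the log2 scale and the array's median over non-control probe sets was subtracted, which raised chip A values by a mean of 0.12 and chip B values by 0.10. Of all chip A calls 33.7% were higher, against 23.5% with the deposited ratio set against 1; on chip B these were 19.3% and 15.8%. The 57 control probe sets of each chip were left out. Each chip was fitted apart with limma 3.58.1 in R 4.3.3 (an intercept, eBayes, two-sided), with Benjamini-Hochberg adjustment over the whole chip at 0.05. The fits were tested on simulated data. The prior degrees of freedom were 1.58 for chip A and 1.18 for chip B. Gene names came from the annotation of the arrays, which gave 1 symbol for 12783 chip A and 7564 chip B probe sets, several for 312 and 100, and none for 2771 and 7612. Complexes were described by counts and medians, with no test. Tables were made in Python 3.11.15.

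Members, roles and lists were chosen with earlier results of these data known. By the rule for named genes, the text names the 8 lowest called members on chip A and the called member of chip B. It also names the complex II subunits, the paralogues of complex IV, the c subunits, Atp5if1, and up to 6 highest and 6 lowest called genes of the pathway list. Members and pathway genes named beyond these were chosen after their values were seen, to show each role. Alternatives were the deposited ratio against 1, other variance priors, a threshold of 0.01, quantile normalization, fewer probe set types, 1 value per gene, and each replicate left out.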

Additional observations from a re-analysis of the deposited data

How the results depend on the processing

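The 37 lower calls on chip A became 14 at a threshold of 0.01 and 16 in an unmoderated test, which gave 2 higher ones, Ndufa13 and Cox7a1. With each replicate left out the count ran from 19 to 38, and by gene from 20 to 38. Shares of all probe sets at 0.01 and with a replicate left out were not set beside these counts. A trended prior gave 36 of the same members and quantile normalization 35. With probe sets of 1 transcript only, 34 were called. That setting leaves out the called probe sets of Atp5if1, Ndufaf3 and Atp5f1c, which were thus not tested under it, and every other call was kept. The 1 lower call on chip B was kept under every alternative run. Without centring, the mean over the 4 arrays of the complex's median was −0.44 for complex I and −0.43 for complex II, against −0.33 and −0.31 with it, lower by the construction of the scale. The other pathway genes had 19 probe sets lower and 7 higher, and 24 and 3 against a ratio of 1. With each replicate left out the same mean of array medians ran from −0.41 to −0.25 for complex III and between −0.43 and −0.21 for the other complexes. Every called probe set named by the rule kept its direction under each alternative run. That was fixed in advance for the variance priors and the unmoderated test, which leave the mean unchanged. It was also fixed on leaving out 1 replicate wherever all 4 arrays lay on the same side of the median. Calls were less stable than directions, as given above for single genes. No paired analysis was possible because the fits set 1 group against a fixed value and the chips were not compared. The fit with 1 value per gene averaged probe sets over both chips by replicate number. It thus took a replicate number to mean the same sample on both chips, which was not tested. The number of arrays and the small prior degrees of freedom limit single calls.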
